A study of Mus musculus with 9 samples.

Results

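The genes that encode the proteasome were examined in the livers of 9 male mice. The set comprised the protein-coding genes whose mouse symbol begins with Psma, Psmb, Psmc, Psmd, Psme, Psmf or Psmg, which gave 50 genes of the 55335 listed, and 4 pseudogenes with such a symbol were left out. All mice were of the B6D2F2 strain, fed a normal chow, and their livers were taken at the age of 20 weeks after 4 h of fasting. The NC-chow group (mice 1, 5 and 6) was naturally conceived. The IVF-chow group (mice 2, 3 and 4) came from 2-cell embryos made in vitro from B6D2F1/J parents and transferred fresh to pseudopregnant ICR females. The FET-chow group (mice 2, 3 and 4) came from such embryos that were slowly frozen, stored in liquid nitrogen and thawed before transfer. IVF-chow and FET-chow mice therefore share fertilization in vitro and an ICR recipient, which NC-chow mice lack. B6D2F2 mice are not inbred, so each differs in genotype, and whether the mice of a group came from separate litters is not given in the sources used here. The p-values measure the spread between these mice only. Values are FPKM, fragments divided by transcript length and library size, so levels can be compared roughly between genes.

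The 26S proteasome degrades proteins that carry ubiquitin chains. Its 20S core is a barrel of 4 stacked rings, in which the outer rings of alpha subunits (Psma genes) gate the entry and the inner rings of beta subunits (Psmb genes) hold the proteolytic sites. The 19S cap binds ubiquitin, removes it and unfolds the substrate with a ring of ATPases (Psmc genes) beside non-ATPase subunits (Psmd genes), and Psmg and a few Psmd genes encode chaperones of assembly. Psme genes encode activators that can replace the cap, and Psmf1 an inhibitor. Interferon replaces the catalytic subunits Psmb6, Psmb7 and Psmb5 by Psmb9, Psmb10 and Psmb8 to form the immunoproteasome, which shapes peptides for presentation on MHC class I. In liver cells, proteasome genes are induced together by the transcription factor Nfe2l1 when proteasome activity is short, and by Nfe2l2 under oxidative stress, both through antioxidant response elements and with small Maf partners.

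Promoters were searched for this element because its regulators are described further on. The core TGACNNNGC was sought on both strands in the 300 bases from 250 before to 50 after each start, as given by RefSeq for GRCm38.p6, where 42 of the 50 genes had 45 promoters. It was found in 6 of 45 (13.3%), against 12.4% of all 32851 promoters, so that the set held it about as often as promoters in general. The genes with a match encode catalytic subunits (Psmb5, Psmb6), an ATPase (Psmc6), a cap subunit (Psmd12), a chaperone (Psmd9) and the activator PA200 (Psme4). The stretches around the matches are shown 5′ to 3′ on the gene's strand, with the match in capitals, and they were ended where an annotated exon begins. In Psmc6, Psmd12 and Psme4 the match is on the opposite strand, so that the capitals show the reverse complement of the core.
Psmb5 (chr14:54618023-54618082, minus strand, match 47 bases before the start): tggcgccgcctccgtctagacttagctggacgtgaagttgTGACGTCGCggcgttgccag
Psmb6 (chr11:70525308-70525356, plus strand, match 9 bases before the start): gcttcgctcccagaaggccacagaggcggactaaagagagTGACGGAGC
Psmc6 (chr14:45329574-45329645, plus strand, match 227 bases before the start): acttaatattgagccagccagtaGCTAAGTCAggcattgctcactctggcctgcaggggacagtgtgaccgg
Psmd12 (chr11:107479278-107479329, plus strand, match 247 bases before the start): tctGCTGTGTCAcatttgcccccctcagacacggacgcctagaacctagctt
Psmd9 (chr5:123228119-123228189, plus strand, match 31 bases before the start): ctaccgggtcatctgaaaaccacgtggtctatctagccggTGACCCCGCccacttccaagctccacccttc
Psme4 (chr11:30771758-30771786, plus strand, match 7 bases before the start, in an annotated exon): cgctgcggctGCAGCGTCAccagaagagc

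Other motifs were searched in the same way. CCAAT, the element bound by NF-Y, was in 15 of the 45 promoters (33.3%) against 37.4% of all. TTCNNNGAA, the gamma-activated site of interferon signalling, was in 3 (6.67%) against 8.3% of all, and GAAANNGAA, the core of the interferon-stimulated response element, in 7 (15.6%) against 8.56%. Of the immunoproteasome genes, Psmb8 held a gamma-activated site, shown here in its surroundings in an annotated exon, 97 bases before the start used.
Psmb8 (chr17:34198088-34198116, plus strand): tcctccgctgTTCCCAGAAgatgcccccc
A match of letters is a description of the sequence and was not tested for binding.

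The libraries differed in depth and in composition. The number of mapped fragments, estimated from the spacing of the lowest FPKM values, was 6610000 to 13400000 in NC-chow, 3880000 to 8280000 in IVF-chow and 2020000 to 2930000 in FET-chow. Nuclear protein-coding genes took 10.1% to 18.1% of the FPKM in NC-chow, 4.36% (mouse 2) to 29.3% (mouse 4) in IVF-chow and 4.41% (mouse 4) to 13.7% in FET-chow, while 3 noncoding RNAs took 3.49% to 61.9%. The sheet numbers in the labels run from 67 to 76 for 7 libraries and are higher for NC mice 5 and 6, which are also the deepest, so NC mouse 1 is the only NC-chow library numbered near the other groups. All 8 hepatocyte markers of the labelled tissue had a mean of at least 1 FPKM. The proteasome genes together rested on an estimated 620 fragments in FET mouse 4 to 9010 in NC mouse 6. Of the 43 genes tested, 17 rested on fewer than 10 fragments in FET mouse 4, 15 in FET mouse 2 and 11 in IVF mouse 2, against none in NC mice 5 and 6. A listed 0 in these mice may therefore be a missed low level.

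The summed level of the 50 genes differed more between mice than between groups. It was 281, 375 and 491 FPKM in NC mice 1, 5 and 6, 99.7, 377 and 739 FPKM in IVF mice 2, 3 and 4 and 350, 450 and 148 FPKM in FET mice 2, 3 and 4. IVF-chow thus held both the lowest and the highest mouse. As a share of the FPKM of nuclear protein-coding genes, the sums were 0.300%, 0.271% and 0.314% in NC-chow, 0.254%, 0.345% and 0.321% in IVF-chow and 0.383%, 0.348% and 0.325% in FET-chow. On that scale each FET-chow mouse was above each NC-chow mouse, and IVF-chow overlapped both. After median-ratio scaling, which divides each library by 1 factor, the sums were 286, 266 and 303 in NC-chow, 276, 316 and 359 in IVF-chow and 302, 354 and 280 in FET-chow, and all groups overlapped.

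**Figure D1:**
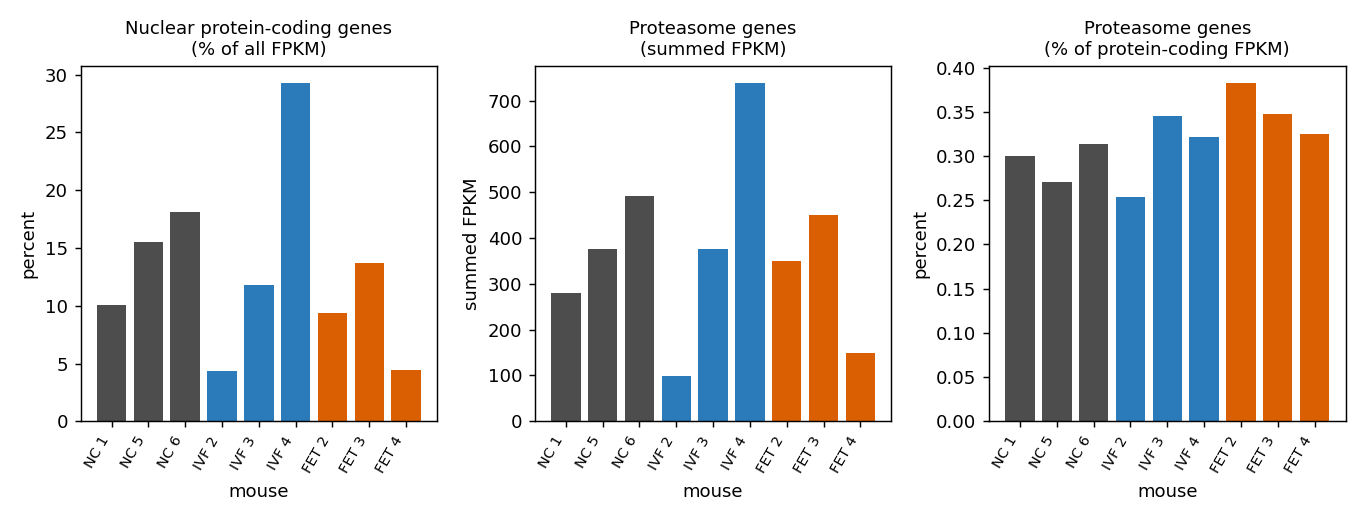
Bars give, for each of the 9 mice, the share of all FPKM on nuclear protein-coding genes (left, percent), the summed FPKM of the 50 proteasome genes (middle) and that sum as a percent of protein-coding FPKM (right), with NC-chow in grey, IVF-chow in blue and FET-chow in orange. The sum ranges from 99.7 to 739 FPKM with the protein-coding share, while the share on the right stays between 0.254% and 0.383%.

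The same mice stood out gene by gene. IVF mouse 2 had the lowest value of all 9 mice for 25 of the 43 tested genes (58.1%), and FET mouse 4 for 12 (27.9%), against 41.3% and 31.6% of all 6755 genes tested. IVF mouse 4 was highest for 24 of 43 (55.8%) and NC mouse 6 for 10 (23.3%), against 43.5% and 21.4% of all genes tested.

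The 3 highest means of the set were those of the core subunits Psmb6, Psmb5 and Psmb3. The order of Psmb5 and Psmb3 varied between mice. Psmb5 stood at 90.7 FPKM in IVF mouse 4, but below Psmb3 in NC mouse 1, IVF mice 2 and 3 and FET mouse 3. All 7 alpha genes were tested and ranged from a mean over the 9 mice of 3.19 FPKM for Psma5 to 16.0 for Psma6. Among the 4 non-catalytic beta genes the range was 3.94 (Psmb1) to 25.4 FPKM (Psmb3). The constitutive catalytic genes held the highest level of the set, 36.6 FPKM for Psmb6 (beta1, which cuts after acidic residues), followed by 28.4 for Psmb5 (beta5, after hydrophobic residues), whereas Psmb7 (beta2, after basic residues) was at 3.42 FPKM. Although each is built into the core in equal numbers, their FPKM thus spread over a wide range. FPKM depends on the transcript length used, and 57.1% of the 50-base words of Psmb5 occur in other genes. How far the spread is one of mRNA was not tested.

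Genes of the cap and the activators overlapped those of the core in level. The 6 ATPase genes ranged from 4.40 (Psmc2) to 18.5 FPKM (Psmc5), and the 11 non-ATPase genes from 1.04 (Psmd13) to 16.2 FPKM (Psmd4, a ubiquitin receptor). Of the activators, Psme2 (PA28 beta) was at 17.7 and Psme1 (PA28 alpha) at 11.4 FPKM, while Psme4 was at 1.33. The 4 chaperones of the core ranged from 1.37 (Psmg3) to 8.06 FPKM (Psmg4). The 3 chaperones of the cap, Psmd5, Psmd9 and Psmd10, were all under a mean of 1 FPKM and were not tested.

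In all, 7 genes were not tested. Besides the chaperones of the cap these were the inhibitor Psmf1 (0.845 FPKM), Psma8 of the testis (at most 0.153 FPKM in any mouse), Psmb11 of the thymus, which was listed at 0 in all 9 mice, and Psmc3ip, likewise at 0, which the symbol brings in but which encodes a recombination protein. Psmd10, gankyrin, was at 0.896, 0.644 and 0.414 FPKM in NC mice 1, 5 and 6, at 0.160, 1.22 and 0.712 in IVF mice 2, 3 and 4 and listed at 0 in all 3 FET-chow mice. In FET-chow 1 fragment on a transcript of 1 kb is worth 0.341 to 0.495 FPKM, so these zeros lie within a few fragments of the NC-chow values.

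**Figure D2:**
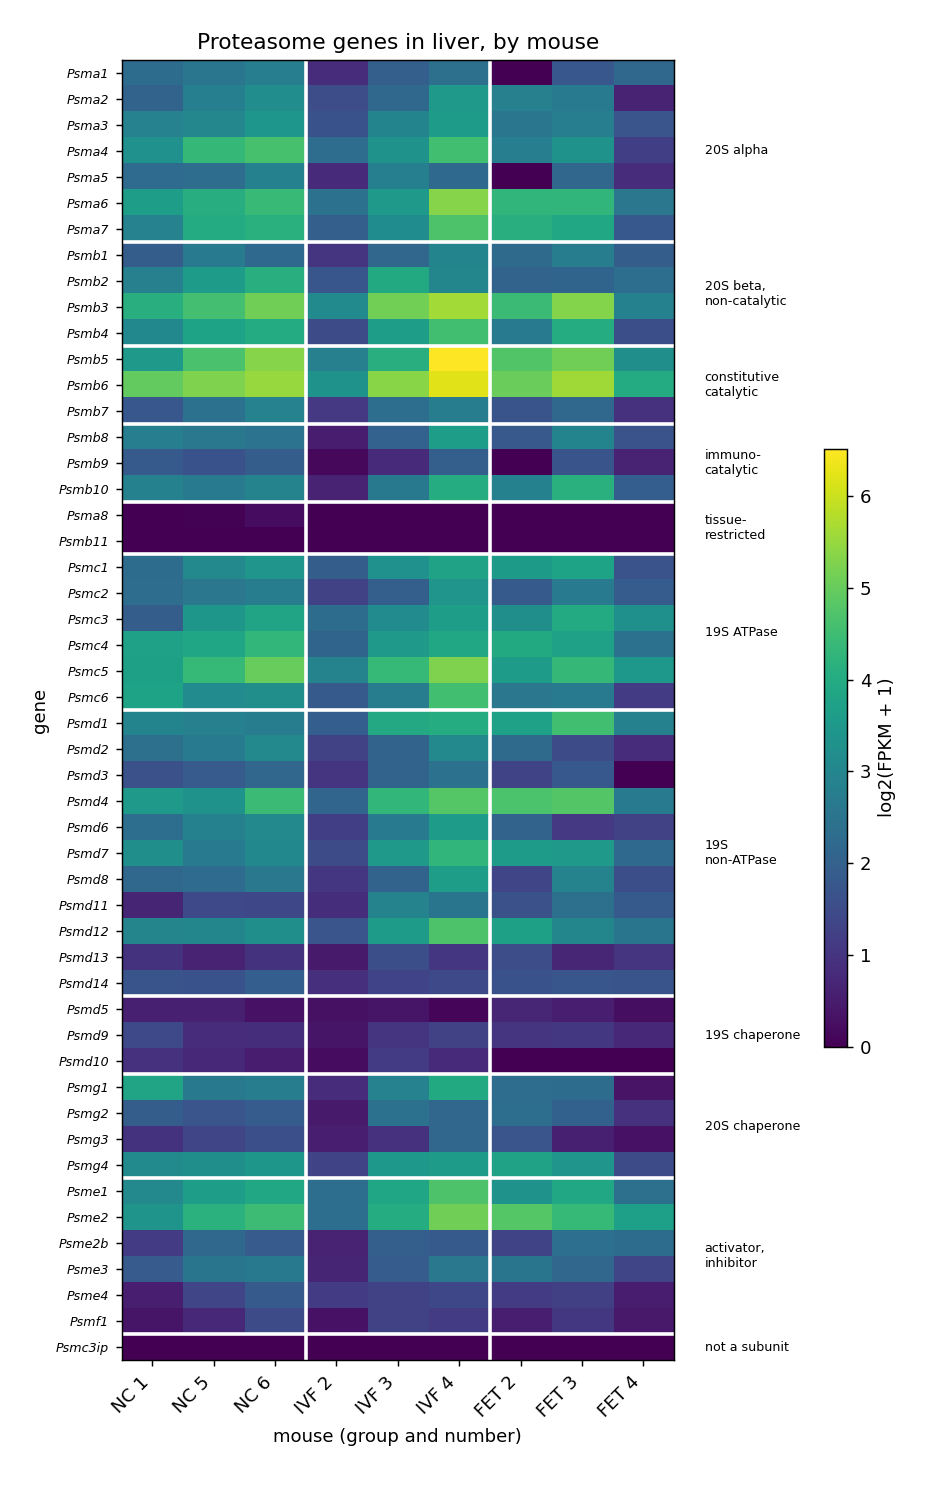
Each row is 1 of the 50 genes, grouped by role, each column 1 of the 9 mice, and the colour gives log2(FPKM + 1). Psmb6 is among the brightest rows in every mouse, the columns of IVF mouse 2 and FET mouse 4 are dark across roles, and Psmb11 and Psmc3ip are at 0 in every mouse.

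Frozen transfer against natural conception was the comparison with most genes called, yet no proteasome gene was among them. With limma on log2(FPKM + 1) and an adjusted p (Benjamini-Hochberg) under 0.05, 16 of 6755 genes were called (0.237%) and 0 of the 43 proteasome genes. At an unadjusted p under 0.05 it was 1 of 43, Psma5, against 12% of all genes tested. Of the fold changes 31 were negative and 12 positive, with a median of -0.40 on the log2 scale, but all genes had a median of -0.46 and 74.4% of them were negative. In median and sign the proteasome genes thus lay with the table as a whole, though on the FPKM as deposited a smaller share of them was at an unadjusted p under 0.05. The smallest adjusted p of any of the 43 was 0.358, and their median standard error of 0.77 (0.66 over all genes tested) exceeded most of the fold changes.

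FET-chow lay wholly below NC-chow for 8 of the 43 genes (18.6%), against 17.1% of all genes tested, and wholly above it for 1 (2.33%), against 1.98%. The former were Psma1, Psma3, Psma5, Psmb2, Psmc6, Psmd2, Psmd6 and Psmg1, and the latter was Psmd11. Both shares were near those of the table.

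The alpha ring held the genes with the smallest p. Psma5 (alpha5) was at 3.82, 4.00 and 6.23 FPKM in NC mice 1, 5 and 6, at 0.752, 6 and 3.68 in IVF mice 2, 3 and 4 and at 0, 3.46 and 0.788 in FET mice 2, 3 and 4. FET-chow did not overlap NC-chow, but IVF-chow spanned both. Its log2 fold change was -1.48 (SE 0.66, limma adjusted p = 0.358). Of the 50-base words of Psma5 transcripts, 55.4% also occur in other annotated genes, mainly pseudogenes, so its reads are uncertain. Psma4 (alpha3) was at 8.86, 19.2 and 23.5 FPKM in NC-chow, at 4.02, 9 and 22.2 in IVF-chow and at 5.89, 9.09 and 1.33 in FET-chow, where FET mouse 3 just overlapped NC mouse 1. The fold change was -1.64 (SE 0.85, limma adjusted p = 0.445), and 31.5% of its words are shared. Psma1 (alpha6), which shares none, was at 3.94, 4.85 and 5.93 FPKM in NC-chow, at 0.780, 2.96 and 4.34 in IVF-chow and at 0, 2.42 and 3.64 in FET-chow (-1.22, SE 0.67, limma adjusted p = 0.465). The lowest NC-chow value of Psma1 exceeded the highest of FET-chow by little. With median-ratio scaling this separation was lost, as FET mouse 4 stood at 6.9, above the 4.01, 3.45 and 3.66 of NC-chow. All 7 alpha genes had a negative fold change, from -1.64 (Psma4) to -0.32 (Psma6), where 74.4% of all genes tested were negative, and none passed the test. With median-ratio scaling 5 were negative and 2 positive (Psma6 0.13 and Psma7 0.01), and the median of the ring went from -0.76 to -0.34.

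Of the cap, Psmd6 (Rpn7) was at 4.10, 6.29 and 7.35 FPKM in NC-chow, at 1.31, 5.53 and 11 in IVF-chow and at 3.24, 1.11 and 1.38 in FET-chow. FET-chow was lower without overlap, at a fold change of -1.29 (SE 0.70, limma adjusted p = 0.465). The chaperone Psmg1 (PAC1), which helps to build the alpha ring, was at 12.9, 5.16 and 5.70 FPKM in NC-chow, at 0.790, 6.40 and 14.6 in IVF-chow and at 4.01, 3.97 and 0.258 in FET-chow. Its fold change was -1.40 (SE 0.77, limma adjusted p = 0.473), and the separation of the groups again rested on a narrow gap. The non-ATPase genes as a group had a median of 0.00, with 5 negative and 6 positive fold changes, and the ATPase genes one of -0.49, with 4 negative and 2 positive. With median-ratio scaling these medians were 0.44, with 4 negative and 7 positive, and -0.04, with 4 negative and 2 positive.

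**Figure D3:**
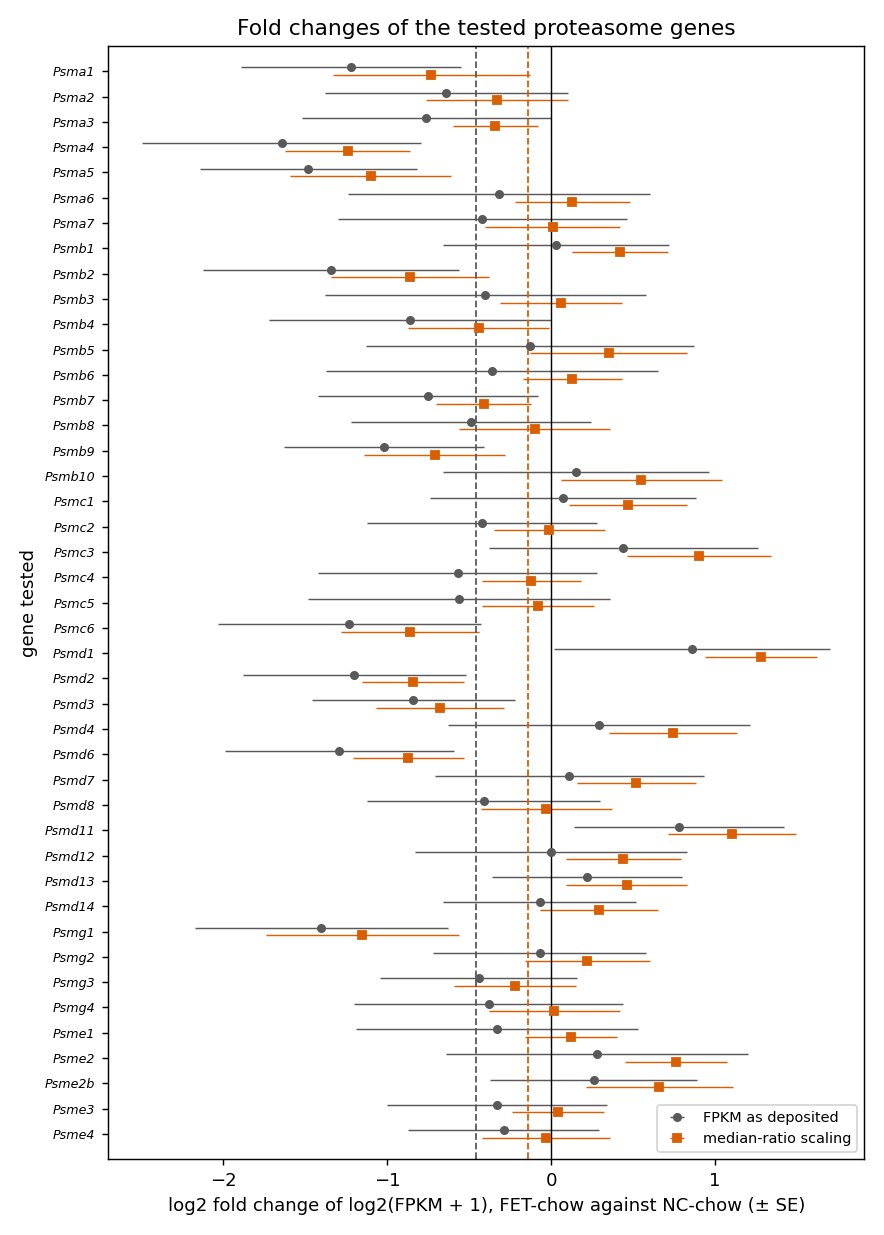
Points give the log2 fold change of FET-chow against NC-chow for the 43 tested genes (horizontal axis, on log2(FPKM + 1), bars ± SE), on the FPKM as deposited (grey circles) and after median-ratio scaling (orange squares), and dashed lines give the median of all 6755 genes, -0.46 and -0.14. Scaling moves nearly every gene to the right and brings the median of the set from -0.40 to 0.01, with Psma4, Psma5 and Psmg1 lowest and Psmd1 and Psmd11 highest.

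Whether the set as a whole is lower in FET-chow depended on the scaling. Its median of -0.40 became 0.01 with median-ratio scaling, 0.03 with quantile normalization and 0.13 after rescaling to nuclear protein-coding genes, while that of all genes became -0.14, 0.00 and -0.06. The median of the set was -0.00 without FET mouse 4 (all genes -0.22), -0.70 without FET mouse 3 (-0.66) and -0.22 without NC mouse 6 (-0.34). No proteasome gene was called under any of these settings.

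Median-ratio scaling reduced the median standard error of the set from 0.77 to 0.38, and that of all genes tested from 0.66 to 0.42. At an unadjusted p under 0.05 there were then 7 of 43 genes (16.3%), against 17% of all genes tested, with Psma4, Psma5, Psmd2 and Psmd6 lower and Psmd1, Psmd11 and Psme2 higher. FET-chow lay wholly below NC-chow for 7 genes (16.3%, against 13.6% of all) and wholly above for 3 (6.98%, against 7.98%). Psma1 and Psmb2 were no longer among those wholly below, whereas Psma4 now was. The smallest adjusted p was 0.142, that of Psmd1.

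Psmd1 and Psmd2 encode Rpn2 and Rpn1, the largest subunits of the cap, and neither passed the test in FET-chow against NC-chow (limma adjusted p = 0.724 and 0.486). Psmd1 was at 6.71, 6.10 and 5.84 FPKM in NC-chow, at 2.88, 14.4 and 15.5 in IVF-chow and at 12.2, 22.4 and 6.30 in FET-chow. Psmd2 was at 4.31, 5.60 and 7.46 FPKM in NC-chow, at 1.43, 3.19 and 7.40 in IVF-chow and at 3.81, 1.87 and 0.771 in FET-chow. Within a mouse the ratio of Psmd1 to Psmd2, which a single factor per library does not change, was 1.56, 1.09 and 0.783 in NC-chow, 2.01, 4.51 and 2.10 in IVF-chow and 3.20, 11.9 and 8.17 in FET-chow. NC-chow lay below both other groups, which overlapped each other. This ratio was looked at after the values were seen and was not tested. Psmd1 overlaps Gm21972 on the same strand and Htr2b on the other, and 26.1% of the words of Psmd2 occur in pseudogenes. Psmd11 (Rpn6), the gene wholly above NC-chow on the FPKM as deposited, was at 0.592, 1.71 and 1.67 FPKM in NC-chow, at 0.796, 6.48 and 4.77 in IVF-chow and at 2.06, 4.26 and 2.59 in FET-chow.

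The catalytic genes showed no difference between FET-chow and NC-chow beyond the spread of the mice. Psmb6 was at 29.8, 37.5 and 44.8 FPKM in NC mice 1, 5 and 6, at 9.21, 40.3 and 73.2 in IVF mice 2, 3 and 4 and at 31.9, 47.1 and 15.2 in FET mice 2, 3 and 4 (FET-chow against NC-chow -0.36, SE 1.01, limma adjusted p = 0.921). Psmb5 was at 10.3, 24.1 and 39.7 FPKM, at 6.18, 16.1 and 90.7 and at 25.9, 33.7 and 8.54 in the same mice (-0.13, SE 1.0, limma adjusted p = 0.973), and 57.1% of its words occur in other genes, Gm3375 among them. Psmb7 was at 2.39, 4.36 and 6.38 FPKM, at 1.12, 4.11 and 5.67 and at 2.21, 3.61 and 0.890 (-0.75, SE 0.67, limma adjusted p = 0.695), and its gene span shares 6571 bases with Nek6 on the other strand. The groups overlapped for all 3 genes. The signs of Psmb5 and Psmb6 turned positive with each of the 3 scalings, at 0.32 to 0.48 for Psmb5 and at 0.12 to 0.26 for Psmb6.

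The immunoproteasome genes did not pass the test either, and on the FPKM as deposited they varied less within NC-chow than within the other groups. Psmb9 (beta1i) was at 2.6, 2.12 and 2.79 FPKM in NC-chow, at 0.0988, 0.716 and 2.91 in IVF-chow and at 0, 2.24 and 0.569 in FET-chow, with a fold change of FET-chow against NC-chow of -1.02 (SE 0.61, limma adjusted p = 0.508). Psmb8 (beta5i) was at 5.88, 5.10 and 4.58 FPKM, at 0.419, 3.13 and 11.6 and at 2.54, 6.68 and 2.15 (-0.49, SE 0.73, limma adjusted p = 0.834). Psmb10 (beta2i) was at 6.25, 5.59 and 6.60 FPKM, at 0.557, 5.20 and 15.5 and at 6.28, 16.7 and 2.85 (0.15, SE 0.81, limma adjusted p = 0.962). As means, NC-chow had 2.5 ± 0.345 FPKM of Psmb9, 5.19 ± 0.654 of Psmb8 and 6.15 ± 0.513 of Psmb10 (SD, n = 3), and FET-chow had 0.935 ± 1.16, 3.79 ± 2.51 and 8.62 ± 7.23 (SD, n = 3). Of the groups, FET-chow and NC-chow overlapped for all 3 genes. After median-ratio scaling the smaller spread of NC-chow no longer held for Psmb8, at 5.98, 3.63 and 2.83 in NC-chow and at 2.19, 5.25 and 4.06 in FET-chow, nor for Psmb9, at 2.65, 1.51 and 1.72 in NC-chow and at 0.274, 0.601 and 1.42 in IVF-chow. On the other strand, Psmb9 shares 212 bases with Tap1, Psmb8 2139 with the antisense gene Gm20496 and Psmb10 2710 with the antisense gene Gm16156.

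Leukocytes express these subunits at high levels, and their markers varied too. The 10 leukocyte markers, 2 of them with a mean of at least 1 FPKM, summed to 5.54 to 7.26 FPKM in NC-chow, 1.05 to 11.9 in IVF-chow and 1.04 to 24.8 in FET-chow, and the 8 Kupffer cell markers, 6 of them with such a mean, to 22.7 to 42.5, 7.28 to 61.9 and 16.2 to 98.7 FPKM. The highest sum of both lists was in FET mouse 2, where 20.4 FPKM of the leukocyte sum were Cd52 alone. The part of these cells in the levels of the immunoproteasome was not tested. In bulk liver RNA fewer cells of a type and less RNA per cell cannot be told apart.

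**Figure D4:**
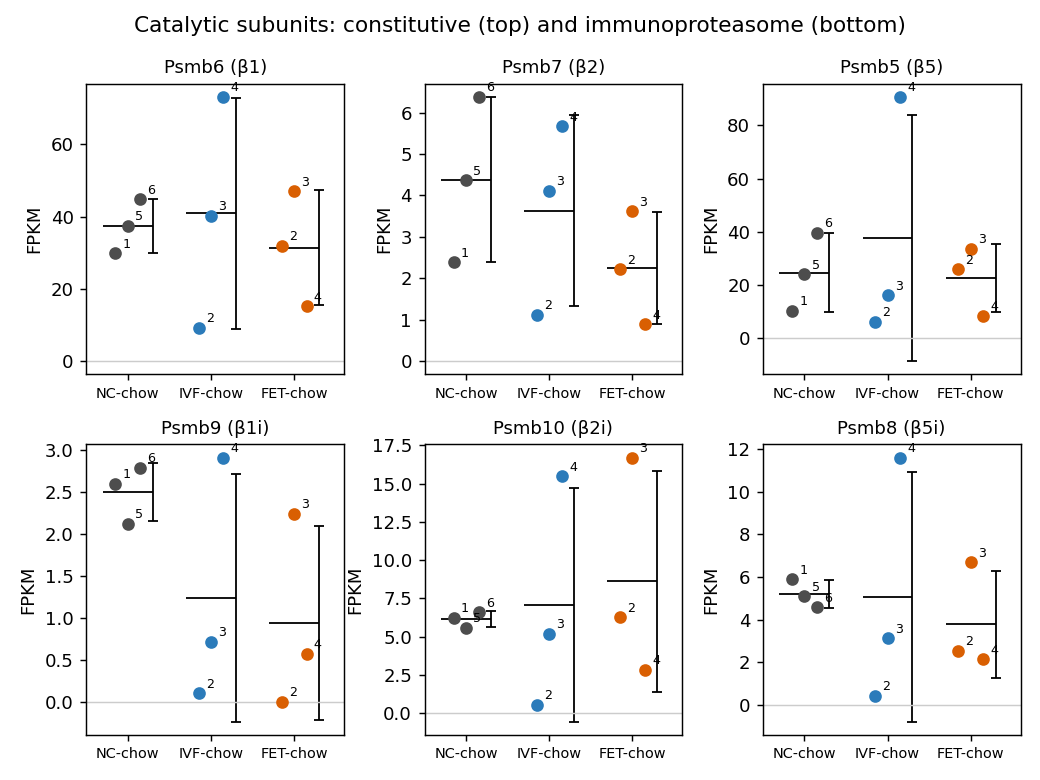
Points give the FPKM of the constitutive catalytic subunits (top row) and of their immunoproteasome counterparts (bottom row) in each mouse, labelled with its number, and lines with bars give the mean ± SD of each group (n = 3). IVF mouse 4 is the highest mouse for Psmb6, Psmb5, Psmb9 and Psmb8, IVF mouse 2 is the lowest for Psmb6, Psmb5, Psmb10 and Psmb8, and the groups overlap in every panel.

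Ratios within a mouse do not change when a library is scaled by a single factor, and 12 were computed, with no test. The summed immunoproteasome genes over the summed constitutive catalytic genes gave 0.347, 0.194 and 0.154 in NC-chow, 0.0651, 0.150 and 0.177 in IVF-chow and 0.147, 0.304 and 0.225 in FET-chow. This overall balance overlapped between all groups. For single pairs, Psmb9 over Psmb6 was 0.0874, 0.0564 and 0.0622 in NC-chow, above the 0.0107, 0.0178 and 0.0398 of IVF-chow and the 0, 0.0475 and 0.0373 of FET-chow. Psmb9 rested on an estimated 1, 4 and 15 fragments in IVF-chow and 0, 8 and 2 in FET-chow, against 23, 33 and 50 in NC-chow. In the other direction, Psmb10 over Psmb7 was 2.61, 1.28 and 1.03 in NC-chow, 0.496, 1.27 and 2.72 in IVF-chow and 2.84, 4.63 and 3.20 in FET-chow, where Psmb7 rested on an estimated 5, 12 and 3 fragments. Psmb8 over Psmb5 was 0.569, 0.212 and 0.116 in NC-chow, 0.0679, 0.194 and 0.128 in IVF-chow and 0.0979, 0.198 and 0.251 in FET-chow, and overlapped between all groups.

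The activator PA28 gave the ratio most even within NC-chow. Psme1 and Psme2 together over the 7 alpha genes came to 0.377, 0.396 and 0.393 in NC-chow, 0.486, 0.613 and 0.506 in IVF-chow and 0.696, 0.574 and 1.01 in FET-chow. NC-chow lay below both other groups. Psme2 shares 59.3% of its words with Psme2b and Gm7928, so the ratio was also taken with Psme1 alone over the alpha genes that share few words (Psma1, Psma2, Psma6 and Psma7). It was then 0.293, 0.275 and 0.279 in NC-chow, 0.408, 0.535 and 0.317 in IVF-chow and 0.223, 0.344 and 0.371 in FET-chow. IVF-chow stayed above NC-chow, but FET mouse 2 fell below it. With Psme1 alone over all 7 alpha genes it was 0.167, 0.159 and 0.156 in NC-chow, 0.242, 0.286 and 0.216 in IVF-chow and 0.176, 0.236 and 0.269 in FET-chow. FET-chow thus lay above NC-chow without Psme2, and overlapped it once Psma3, Psma4 and Psma5 were left out of the alpha genes.

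The proportion of cap to core was not tested. The 17 subunits of the cap over the 14 of the core gave 0.821, 0.595 and 0.633 in NC-chow, 0.819, 0.793 and 0.638 in IVF-chow and 0.887, 0.753 and 1.07 in FET-chow. FET mice 2 and 4 were above every other mouse, and FET mouse 3 was within the range of NC-chow.

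**Figure D5:**
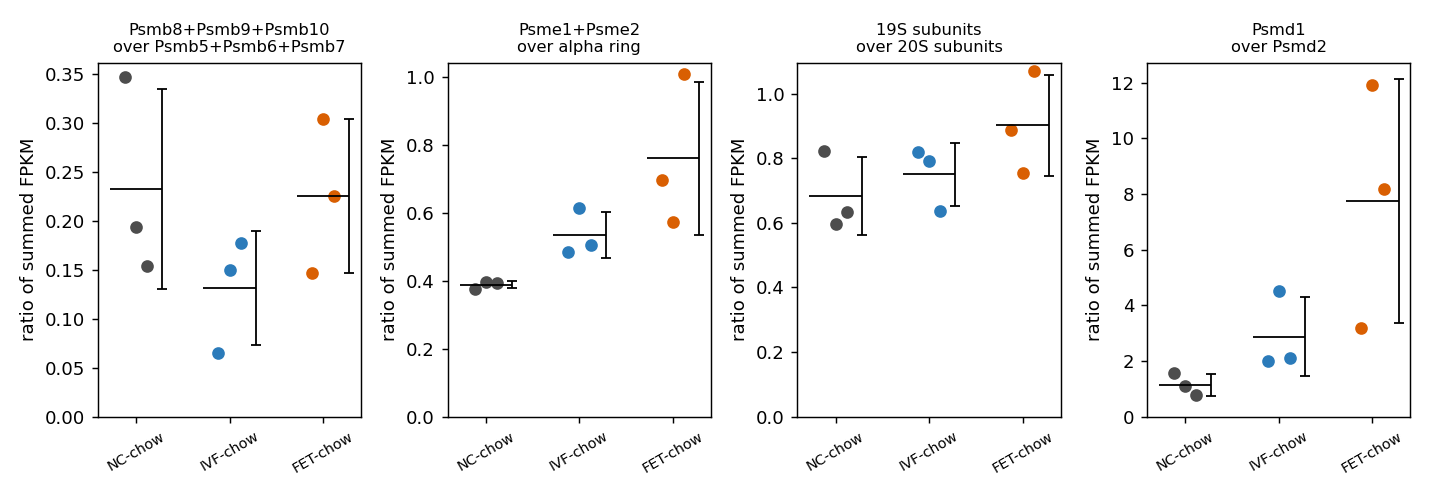
Points give ratios of summed FPKM within each mouse by group, for the immunoproteasome over the constitutive catalytic genes, PA28 over the alpha ring, cap over core and Psmd1 over Psmd2, and lines with bars give the mean ± SD (n = 3). NC-chow lies below both other groups for PA28 (0.377 to 0.396) and for Psmd1 over Psmd2 (0.783 to 1.56), and the groups overlap for the other ratios.

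Fresh transfer against natural conception gave smaller differences. With limma 4 of 6755 genes were called (0.0592%) and 0 of the 43 proteasome genes, and at an unadjusted p under 0.05 it was also 0 of 43, against 4.07% of all. The fold changes had a median of -0.27, against -0.25 over all genes tested. With median-ratio scaling the median was 0.00, as over all genes, and 2 of 43 genes, Psmd1 and Psmd11, were at an unadjusted p under 0.05, both higher, against 5.73% of all. On the FPKM as deposited the median moved with single mice, as did that of all genes, to 0.34 (all genes 0.22) without IVF mouse 2 and to -0.80 (-0.63) without IVF mouse 4. IVF-chow lay wholly below NC-chow for 1 gene (2.33%, against 5.46% of all), Psmd14, and wholly above for none (against 0.77%).

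The smallest p in this comparison was that of Psmd11, at 0.92 (SE 0.64), followed by Psmb9 at -0.84 (SE 0.61), Psma1 at -0.80 (SE 0.67), Psmd14 at -0.55 (SE 0.59) and Psme3 (PA28 gamma, the nuclear activator) at -0.62 (SE 0.67), with a limma adjusted p of 1 for each. Psmd14, the deubiquitinase of the cap, was at 2.26, 2.11 and 2.89 FPKM in NC-chow, at 0.865, 1.5 and 1.69 in IVF-chow and at 2.14, 2.37 and 2.21 in FET-chow. On the FPKM as deposited IVF-chow was the low group for this gene, and FET-chow lay within NC-chow. With median-ratio scaling this separation was lost, as IVF mouse 2 stood at 2.4, above the 2.29, 1.5 and 1.79 of NC-chow.

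Frozen against fresh transfer compares groups that share fertilization in vitro. With limma 6 of 6755 genes were called (0.0888%) and 0 of the 43, and at an unadjusted p under 0.05 again 0 of 43, against 4.01% of all. The median was -0.14, against -0.20 over all genes tested, and it moved to -0.02 with median-ratio scaling (-0.13 over all genes), to -0.76 without IVF mouse 2 (-0.67), to 0.32 without IVF mouse 4 (0.16) and to 0.12 without FET mouse 4 (0.06). With median-ratio scaling 3 of 43 genes, Psma4, Psmd3 and Psmd6, were at an unadjusted p under 0.05, all lower, against 9.47% of all. On the FPKM as deposited FET-chow lay wholly above IVF-chow for Psmd14 alone (2.33%, against 1.27% of all) and wholly below it for none (against 2.56%).

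The genes with the smallest p were Psmd6 at -1.03 (SE 0.70), Psma5 at -0.95 (SE 0.66), Psmd3 at -0.79 (SE 0.62), Psmg1 at -0.91 (SE 0.77) and Psmc6 at -0.90 (SE 0.80), with a limma adjusted p of 1 for each. Psmd3 (Rpn3) was at 0.975, 3.21 and 4.46 FPKM in IVF-chow and at 1.52, 2.46 and 0 in FET-chow. Psmc6 (Rpt4) was at 2.61, 5.76 and 22.2 FPKM in IVF-chow and at 5.02, 5.59 and 1.19 in FET-chow. IVF mouse 2 lay within the FET-chow values for both.

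The 3 comparisons share mice in pairs, so their fold changes are not independent.

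Genes around the proteasome were counted from the same fit. Besides Nfe2l1, the 2 genes named of each list are those with the smallest p in FET-chow against NC-chow. Of the 9 proteasome proteins with other symbols 6 were tested. Their median in FET-chow against NC-chow was -0.44, close to the -0.46 of all genes (with median-ratio scaling -0.10 and -0.14). The examples are Txnl1, a cap-bound thioredoxin, at -0.99 (limma adjusted p = 0.529) and Sem1, a small cap subunit, at -1.04 (0.593). The others tested ranged from -0.48 (Adrm1) to -0.06 (Pomp). For ubiquitin and its conjugation 18 of 22 genes were tested, with a median of -0.75, and none was called. Uba1, the main ubiquitin-activating enzyme, was at -1.34 (limma adjusted p = 0.379) and Nedd8, the modifier of cullin ligases, at -1.58 (0.430). With median-ratio scaling the median was -0.39, against -0.14 over all genes, and 3 of the 18 were at an unadjusted p under 0.05, all higher, against 17% of all genes tested, and none was called. Of 13 genes that deliver substrates 9 were tested, with a median of -0.42 and none called, among them the shuttle Rad23b at -1.11 (limma adjusted p = 0.553) and Faf1 at -0.58 (0.737). With median-ratio scaling the median of these 9 was -0.11, against -0.14 over all genes.

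The genes that control proteasome expression held the only call of these lists. Of 11 genes 8 were tested, with a median of -1.02 in FET-chow against NC-chow, against -0.46 over all genes. Of these 8 genes 1 was called lower, Mafg, against 0.237% of all genes tested. With median-ratio scaling the median was -0.75, against -0.14 over all genes. At an unadjusted p under 0.05 there were 4 of the 8, all lower, against 12% of all genes tested, and 4 with median-ratio scaling, against 17%. The list was chosen with earlier results of these data known, so these shares describe it and are not a test of it. The 8 hepatocyte markers had a median of -1.18 in the same comparison (-0.68 with median-ratio scaling) and none called, and their part in this result was not tested. Mafg, a small Maf partner, was at 6.27, 13.7 and 15.3 FPKM in NC-chow, at 1.47, 0 and 0.149 in IVF-chow and at 0, 0 and 1.32 in FET-chow (FET-chow against NC-chow -3.18, SE 0.61, limma adjusted p = 0.00476). It was also the only gene of these lists called in IVF-chow against NC-chow (-3.09, SE 0.61, limma adjusted p = 0.0284), a call that was lost with median-ratio scaling (-2.42, limma adjusted p = 0.575). Nfe2l2 was at 13.5, 35.1 and 37.7 FPKM in NC-chow, at 1.85, 4.49 and 10.8 in IVF-chow and at 3.74, 2.65 and 0.364 in FET-chow (-3.25, SE 0.80, limma adjusted p = 0.0519). The mice of NC-chow lay above all others for both genes. The highest values were those of NC mice 5 and 6, the deepest libraries, which also have the higher sheet numbers. The part of depth and of numbering in this was not tested. With median-ratio scaling the call passed from Mafg (-2.63, limma adjusted p = 0.125) to Nfe2l2 (-2.91, limma adjusted p = 0.0282). With no filter on low values or with only the groups compared, 0 genes were called in FET-chow against NC-chow, so the call of Mafg was lost there too.

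Nfe2l1, in contrast, was at 2.6, 4.5 and 6.71 FPKM in NC-chow, at 1.84, 4.00 and 7.92 in IVF-chow and at 2.09, 6.05 and 1.59 in FET-chow (-0.48, SE 0.70, limma adjusted p = 0.828). Its groups overlapped. The tested genes with the element shown above had fold changes in FET-chow against NC-chow of -0.13 (Psmb5), -0.36 (Psmb6), -1.23 (Psmc6), 0.00 (Psmd12) and -0.29 (Psme4), and none was called. For interferon signalling and class I antigen processing, which the immunoproteasome serves, 11 of 15 genes were tested, with a median of -0.52 and none called. Irf1, an interferon-induced transcription factor of immunoproteasome genes, was at -1.63 (limma adjusted p = 0.258) and Nlrc5, the class I transactivator, at -0.88 (0.563). The median over all genes was -0.46. With median-ratio scaling the median of this list was -0.20, against -0.14 over all genes. At an unadjusted p under 0.05 there were then 1 of the 11 higher and 1 lower, against 17% of all genes tested. In FET-chow against IVF-chow no gene of these lists was called.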

How the data were processed

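Liver RNA was sequenced by the study on an Illumina Nova6000 system after TRIzol extraction, and the authors trimmed the reads, mapped them and deposited FPKM values. The submitters' notes list FastQC 0.11.5, STAR 2.5.3a and StringTie 1.3.1c. The genome build, annotation and strandedness are not given in the sources used here. Symbols, positions and shared 50-base words came from GENCODE vM21 (GRCm38), which matched 55154 of 55335 identifiers, and promoters from RefSeq (GRCm38.p6).

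Groups were taken from the labels. Genes with a mean of at least 1 FPKM were tested with limma 3.58.1 (R 4.3.3) on log2(FPKM + 1), in 1 model of the 3 groups, with a trend, two-sided and Benjamini-Hochberg adjusted over all 6755 genes. A fold change on this scale understates that of low genes. The procedure was tested on simulated data. Depth was estimated from FPKM steps of up to 8 fragments with a tolerance of 2% and covers counting error only.

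Genes named are the 5 with the smallest p per comparison, the catalytic genes, up to 2 of each pathway list (smallest p in FET-chow against NC-chow) and Nfe2l1. Ratios, Psmd1, Psmd2, Psmd11, Psmd10 and the genes with a promoter match were singled out with values known. The members and lists were chosen with earlier results of these data known. Alternatives were a pseudocount of 0.1, no filter, a mean of at least 10 FPKM, median-ratio, quantile and protein-coding scaling, only the groups compared, a replicate block and leaving out each mouse.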

Additional observations from a re-analysis of the deposited data

How the results depend on the processing

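No proteasome gene was called in any of the comparisons under any alternative tried. The counts over all genes were less stable. In FET-chow against NC-chow (16 genes) limma called 0 with no filter on low values, 26 with median-ratio scaling, 5 with a mean of at least 10 FPKM and 0 with only the groups compared, and 1 (without FET mouse 3) to 83 (without NC mouse 1) when each mouse was left out. In IVF-chow against NC-chow (4 genes) it called 2 with a mean of at least 10 FPKM, 0 with a pseudocount of 0.1, with no filter, with each of the 3 scalings and with only the groups compared, and 0 to 24 (without NC mouse 1) with a mouse left out. In FET-chow against IVF-chow (6 genes) it called 0 with no filter, 0 with only the groups compared, 2 with the replicate block and 0 (without IVF mouse 4) to 10 with a mouse left out. The block pairs mice 2, 3 and 4 by number, and their deviations correlated at -0.13, 0.02 and -0.26. Taken from means of 3 mice per group, such values cannot show whether mice of 1 number share anything else, and this was not tested.

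The median of the proteasome genes in FET-chow against NC-chow went from -0.40 to 0.01, 0.03 and 0.13 under median-ratio scaling, quantile normalization and protein-coding scaling, and that of all genes from -0.46 to -0.14, 0.00 and -0.06. Psmb5 turned to 0.35, 0.32 and 0.48 and Psmb6 to 0.13, 0.12 and 0.26 under the same settings. With a mouse left out, Psmb5 ranged from -0.62 to 0.43 (0.30 without NC mouse 6 and 0.43 without FET mouse 4), Psmb6 from -0.71 to 0.07 (without FET mouse 4) and Psmb10 from -0.43 (without FET mouse 3) to 0.67. The cause was not tested. Of the 21 fold changes given with a standard error as the smallest p of a comparison or for a catalytic gene, the other 18 kept their direction under every alternative, but each moved in size by over 1.5 times under at least 1. Among them Psmb8 (-0.49) came to -0.00 with protein-coding scaling, Psma1 (-1.22) to -0.55 without FET mouse 2, Psme3 in IVF-chow against NC-chow (-0.62) to -0.09 without IVF mouse 2 and Psmc6 in FET-chow against IVF-chow (-0.90) to -0.16 without IVF mouse 4. Over all 43, the negative fold changes in FET-chow against NC-chow went from 31 to 21, 20 and 16 under the 3 scalings. Examples are Psma6 (-0.32), which turned to 0.13, 0.08 and 0.26 under the 3 scalings, and Psmb3 (-0.40), which turned to 0.06, 0.04 and 0.19. Depth limits FET-chow most, where 6 to 17 of the 43 genes tested rested on fewer than 10 fragments per mouse.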
